A study of Mus musculus with 16 samples.

Results

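Granule cells (GCs) of the dentate gyrus (DG) with RNA of *Sorcs3* were compared with GCs of the same mouse in which no *Sorcs3* RNA was found. Nuclei came from the microdissected DG of 8 mice, of which 4 were wild-type (WT) and 4 carried V321L, each genotype with equal numbers of females and males (2 and 2). V321L mice carry 2 copies of a *Nrg1* allele with leucine in place of valine at the named position, and WT mice carry 2 copies of the valine allele. No treatment is named, and each mouse gave 1 library. The study gives an age range for its mice as a whole, and the age and strain of these animals are not given in the sources used here. Each library holds the RNA, as unique molecular identifiers (UMIs), and the accessible chromatin, as ATAC counts in peaks, of the same nuclei.

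A nucleus was taken as a GC with at least 3 UMIs over 6 GC genes (*Prox1*, *Rfx3*, *Glis3*, *Chst9*, *C1ql2* and *Plk5*) and 0 UMIs over 5 genes of other cells (*Gad2*, *Mog*, *Pdgfra*, *Gja1* and *Inpp5d*). Of 17015 nuclei 10390 were GCs by this rule. Sorcs3-high GCs were selected on 2 or more *Sorcs3* UMIs, which gave 482 nuclei, while 714 GCs held 1 *Sorcs3* UMI and 9194 held 0. The WT mice F1, F2, M1 and M2 gave 80, 100, 26 and 72 Sorcs3-high nuclei, and the V321L mice F1, F2, M1 and M2 gave 43, 77, 53 and 31. Each was compared with 5 GCs of its own mouse with 0 *Sorcs3* UMIs and nearly the same total UMIs, 2410 matched nuclei in all. *Sorcs3* was picked as a marker from clusters of these same nuclei, so the RNA comparison describes the genes that accompany *Sorcs3* in the nuclei that chose it. The ATAC counts are a readout that the choice did not use beyond a minimum of 500 counts per nucleus.

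*Sorcs3* encodes a receptor of the sortilin family, transmembrane proteins that sort cargo such as receptors and growth factors between the cell surface and internal compartments. GCs are the principal neurons of the DG, depend on the transcription factor Prox1 for their identity, and send mossy fiber axons to CA3. Most are quiet at any time, and those that fire switch on immediate early genes such as *Arc*, which encodes a protein of the postsynaptic density, and *Bdnf*, which encodes a neurotrophin. *Nrg1* encodes a ligand of ErbB receptors, and its membrane-bound forms can also signal back into the cell that makes them.

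The depth of the Sorcs3-high nuclei was that of their matches. Median UMIs per nucleus ranged from 2544.5 to 5651 over the 8 mice in Sorcs3-high nuclei and from 2546.5 to 5649 in matched nuclei, whereas all GCs of a mouse had medians of 1238 to 2155 UMIs in WT and 3347 to 4684.5 in V321L libraries. Together, the Sorcs3-high nuclei of a mouse held between 77320 and 425424 RNA UMIs and between 90671 and 791570 ATAC counts, and WT M1 was the shallowest in RNA. Genes detected per nucleus were 1884 ± 505 in Sorcs3-high and 1934 ± 570 in matched nuclei (SD, n = 8 mice), and the difference did not pass an exact two-sided sign-flip test over mice (p = 0.102). The mitochondrial share was lower by 0.0794 ± 0.111 percentage points (SD, n = 8) in Sorcs3-high nuclei, in 7 of 8 mice (exact sign-flip p = 0.0234, where 0.00781 is the smallest p 8 mice can give). With predicted doublets removed it was lower by 0.0738 points in 6 of 8 mice and did not pass (exact p = 0.0547). ATAC counts per nucleus differed in no fixed direction (higher in 3 of 8 mice, exact p = 0.891). Among all 17015 nuclei 171 barcodes occurred in 2 or more libraries, 7 Sorcs3-high nuclei carried such a barcode, and none was Sorcs3-high in 2 libraries. Predicted doublets were kept and made up between 0% and 15.4% of the Sorcs3-high nuclei of a mouse.

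Nuclei with 2 or more *Sorcs3* UMIs were not limited to GCs. Oligodendrocyte and microglial nuclei were taken with at least 3 UMIs over the markers of their type, fewer than 3 (oligodendrocytes) or 0 (microglia) over the 6 GC genes, and 0 over the excluded genes of other types. In oligodendrocyte nuclei the share was 6.77% (13 of 192, exact 95% interval 3.65 to 11.3%) in WT and 2.46% (15 of 609, 1.38 to 4.03%) in V321L mice, at median depths of 771 to 906.5 and 951 to 1300 UMIs. In GCs it was 4.40% (3.90 to 4.93%) and 5.02% (4.37 to 5.73%), so in WT mice the share of GCs was not above that of oligodendrocytes. In microglia, a cell type that should lack the gene, it was 1 of 40 nuclei in WT mice (2.5%, exact 95% interval 0.0633 to 13.2%) and 0 of 191 in V321L mice, for which 3 counts of the total allow a share of up to 1.57% and the exact interval one of up to 1.91%. The WT microglia had medians of 686 to 5830 UMIs per mouse and the V321L microglia of 773 to 1101, below those of the V321L GCs. Barcodes too shallow for a nucleus, which hold free RNA, held *Sorcs3* at 47.4 to 67.4 UMIs per 1000000 UMIs (CPM) in WT and at 12.2 to 27.4 in V321L libraries, against 90.1 to 141 and 59.6 to 70.8 CPM over all GCs. The shares above are from nuclei of unequal depth. As a level, oligodendrocyte nuclei held *Sorcs3* at 200 to 792 CPM in WT and at 86.4 to 150 in V321L mice. In every mouse of both genotypes this was above the level of its GCs. Intervals and limits cover counting error only.

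Within GCs the Sorcs3-high nuclei were concentrated in a few clusters. GCs were clustered without *Sorcs3*, the genes of the rule and sex-linked genes, which gave 13 clusters, described here by their leading genes and not tested. A cluster led by *Penk*, *Mylk3*, *Pappa*, *Grm8*, *Sorcs1* and *Nrg1* held 264 Sorcs3-high nuclei, 54.8% of all and between 38.5% and 71.4% per mouse. It held 11.3% of the matched nuclei. A cluster of 60 nuclei with the highest summed immediate early genes, led by *Mir670hg*, *Tll1*, *Megf11*, *Nptx2* and *Inhba*, was found in all 8 mice. Of its nuclei 44 (73.3%) were Sorcs3-high, and it contained 9.13% of all Sorcs3-high nuclei but only 3 matched nuclei. At a median depth of 2575.5 UMIs this cluster held *Sorcs3* at 2063 CPM, whereas a cluster led by *Gpc3* and *Csgalnact1*, with a median of 3183 UMIs, had 5 Sorcs3-high nuclei among 1689.

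Part of the Sorcs3-high nuclei lay in clusters low in *Prox1*. In 3 clusters the summed *Prox1* lay under 50% of the 243 CPM of all GCs, and these clusters held 91 Sorcs3-high nuclei (18.9%, between 10.0% and 30.8% per mouse) and 6.43% of the matched nuclei. Their leading genes were *Kcnc2*, *Galntl6* and *Chrm3* in a cluster of 350 nuclei, *Plcxd3* and *Sox5* in a cluster of 58, and *Tshz2* and *Dpp10* in a cluster of 101. Predicted doublets made up 29.7% of the 91 nuclei, 1.14% of those in the cluster led by *Penk* and 0% of those in the cluster highest in immediate early genes. The remaining 83 Sorcs3-high nuclei (17.2%) were spread over 8 clusters. Over the whole group the 12 GC genes outside the rule summed to between 3659 and 5643 CPM in Sorcs3-high nuclei and to between 4094 and 5279 in matched nuclei, but this did not hold in the low-*Prox1* clusters. There 11 of the 12 lay below the matched nuclei, among them *Stxbp6* at 197 against 893 CPM, *Maml2* at 266 against 1092, *Dock10* at 165 against 984 and *Dsp* at 1.99 against 75.4, and only *Camk4* lay above (217 against 92.1). For these 91 nuclei the GC label rests on the rule alone. Results are therefore given for all 482 nuclei and, where they depend on it, without the low-*Prox1* clusters.

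**Figure D1:**
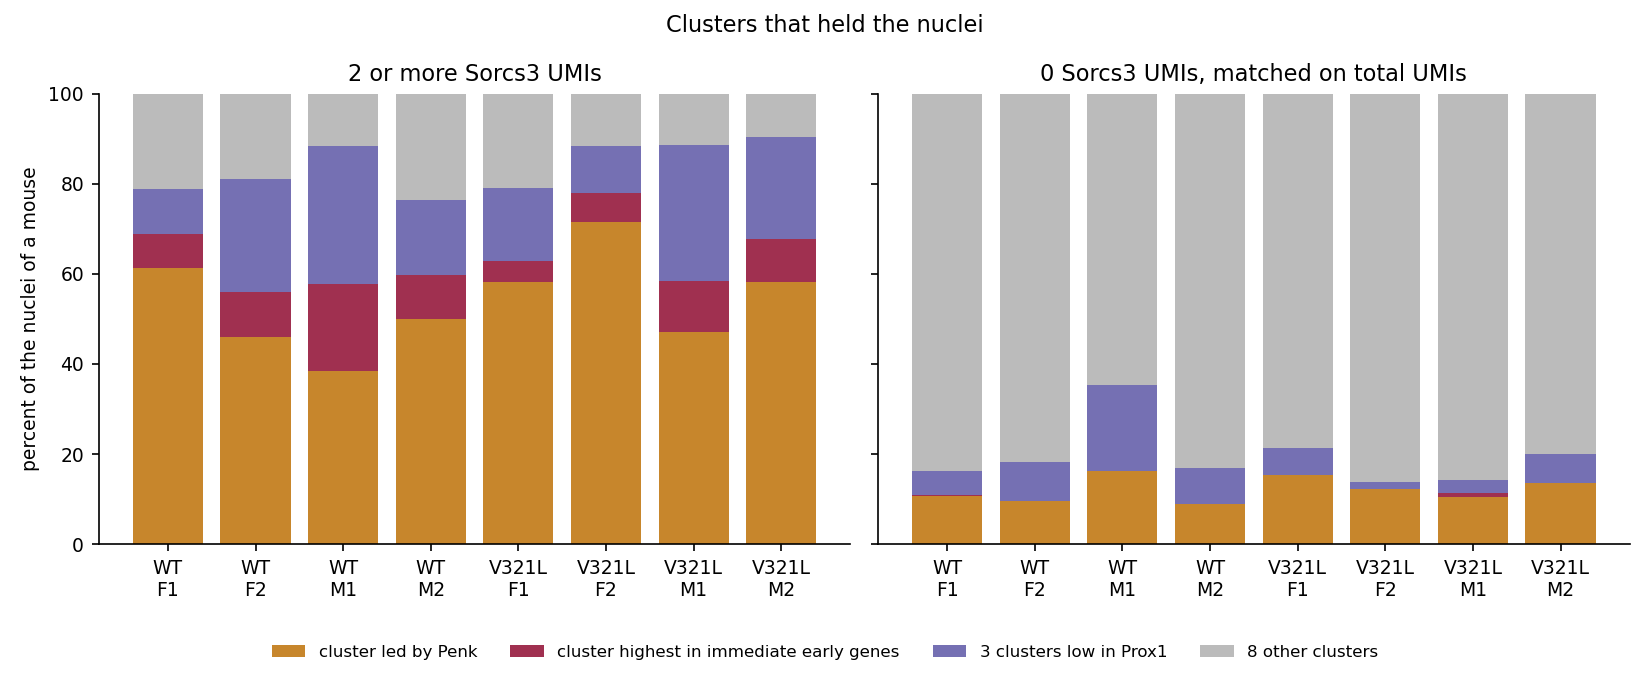
Clusters that held the Sorcs3-high nuclei (left) and the matched nuclei (right) of each mouse, as percent of the nuclei of that mouse. The cluster led by *Penk* holds between 38.5% and 71.4% of the Sorcs3-high nuclei, and the 8 other clusters hold most of the matched nuclei in every mouse.

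Markers of other cell types were looked up in both groups. Summed CA1 pyramidal markers were higher in Sorcs3-high nuclei in 8 of 8 mice, with a range of 19.4 to 189 against 7.46 to 39.8 CPM. Of these, *Mpped1* and *Pou3f1* lay at 53.7 and 65.6 CPM in the Sorcs3-high nuclei of the low-*Prox1* clusters, against 2.46 and 4.04 in all matched nuclei. Summed GABAergic markers were higher in 1 of 8 mice, and 94.8% of them came from *Adarb2*, which matched GCs also held. The other 6 GABAergic markers did not follow that sum. *Vip* had 35 UMIs in Sorcs3-high nuclei (16.9 CPM), all in the low-*Prox1* clusters, against 2 in matched nuclei (0.197 CPM), *Dlx6os1* lay at 2.41 against 0.689 and *Gad1* at 48.7 against 41.6, while *Slc32a1*, *Sst* and *Lhx6* were not above the matched level. Summed CA3 markers, 93.2% from *Cpne4*, were higher in 6 of 8 mice and mossy cell markers, mostly *Necab1*, in 4 of 8. Oligodendrocyte and astrocyte markers were higher in 4 of 8 mice each, microglial markers in 2, precursor markers in 5, vascular markers in 2, and Cajal-Retzius markers in 1 with 1 UMI in all 482 nuclei. Immature neuron markers were higher in 4 of 8 mice, and dorsal and ventral DG markers in 7 of 8 each. Of the ventral list, *Cpne7* had 50 UMIs in Sorcs3-high nuclei, all of them in the low-*Prox1* clusters. None of the tested genes of these lists was called in the RNA test, except *Gsg1l* of the dorsal list, and the mossy, CA1, Cajal-Retzius, precursor, vascular and ventral lists and a list of *Fst*, *Ryr1* and *Capn3* had 0 genes past the filter on low counts. Besides leaving out the low-*Prox1* clusters, an alternative left out nuclei with UMIs of other neuron markers, not counting *Adarb2*, *Cpne4* and *Necab1*. It kept 15 to 72 Sorcs3-high nuclei per mouse. In the RNA test it gave 83 genes higher, 74 of them among the 96 called with all nuclei. It gave 47 lower, 28 of them among the 37 called with all nuclei. The part of other cells in each result was not tested beyond these steps.

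In normalised CPM the 4 genes named with the rule were higher in Sorcs3-high nuclei of every mouse, which is given as a description and without a test. *Nrg1* lay at 2488, 2699, 1802 and 2136 normalised CPM in the Sorcs3-high nuclei of WT F1, F2, M1 and M2 and at 1462, 984, 2092 and 1040 in those of V321L F1, F2, M1 and M2. In the matched nuclei, in the same order, it lay at 505, 680, 593, 489, 277, 413, 459 and 225. The lowest Sorcs3-high value was above the highest matched value, and the fitted difference was 2.01 ± 0.09 on the log2 scale (SE, n = 8 mice). *Sorcs1*, a close relative of *Sorcs3*, ranged from 30.3 to 186 in Sorcs3-high and from 2.56 to 20.1 in matched nuclei, a difference of 3.26 ± 0.20. *Grm8*, a presynaptic metabotropic glutamate receptor that lowers transmitter release, ranged from 146 to 543 and from 28.1 to 86.0, and again the groups did not overlap. *Sgcz*, a sarcoglycan of the dystrophin-associated complex, ranged from 66.2 to 780 and from 12.9 to 393, so that the groups overlapped although every mouse was higher. In V321L F1, however, *Sgcz* was detected in fewer of the Sorcs3-high nuclei (14.0%) than of the matched nuclei (17.7%). At least 2 of these 4 genes were detected in 44.2% to 79.2% of the Sorcs3-high nuclei of a mouse and in a smaller share of the matched nuclei of each mouse, in the lowest 9.03%.

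**Figure D2:**
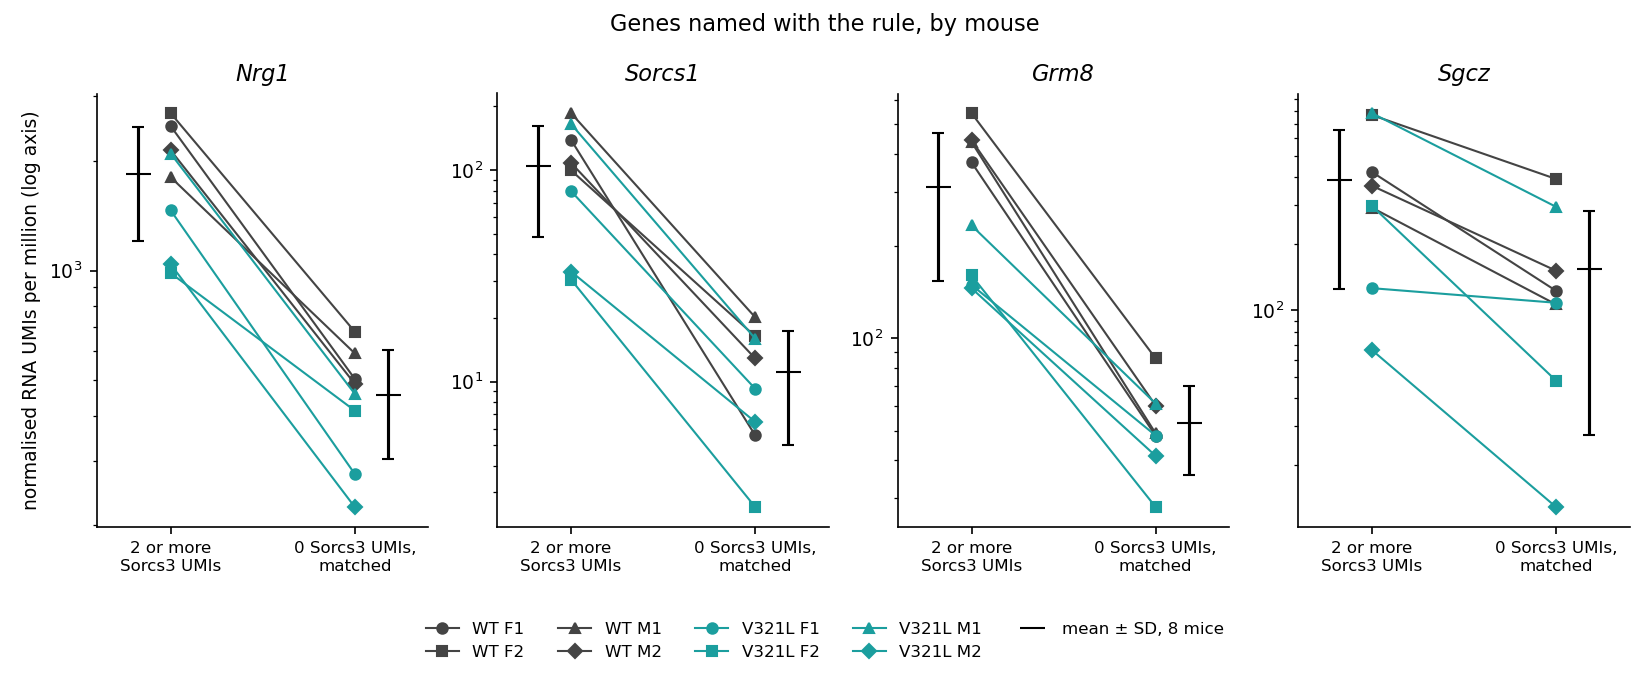
Normalised RNA CPM (log axis) of *Nrg1*, *Sorcs1*, *Grm8* and *Sgcz* in the Sorcs3-high and the matched nuclei of each mouse, joined by a line per mouse, with the mean ± SD over 8 mice. All 8 lines fall from left to right in each panel, and only in *Sgcz* do the values of the 2 groups overlap.

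Around the limit of 2 UMIs the levels differed by gene and mouse. In WT mice *Nrg1* lay at 557 ± 80.0 CPM (SD, n = 4 mice) in GCs with 0 *Sorcs3* UMIs, at 1254 ± 210 with 1 UMI, just outside the limit, at 1744 ± 231 with 2 UMIs, just inside it, at 1664 ± 471 with 3 to 4, and at 3501 ± 474 with 5 or more. In V321L mice the values were 421 ± 94.7, 925 ± 288, 1140 ± 309, 1452 ± 727 and 2007 ± 619. In V321L F2 it lay at 1208 with 1 UMI and lower, at 896 and 799, with 2 and with 3 to 4. *Sgcz* followed the mean up to 3 to 4 UMIs but not beyond. In WT mice it lay at 160 ± 90.2 with 0, 431 ± 193 with 1, 455 ± 162 with 2, 495 ± 334 with 3 to 4 and 338 ± 78.1 with 5 or more. In V321L mice the values were 134 ± 130, 376 ± 261, 406 ± 383, 432 ± 464 and 80.4 ± 95.1. *Penk*, which encodes the precursor of the enkephalins, lay in V321L mice at 14.8 ± 2.80 with 0, 65.5 ± 21.6 with 1, 65.6 ± 61.5 with 2, 63.4 ± 30.1 with 3 to 4 and 213 ± 174 with 5 or more *Sorcs3* UMIs. In WT mice it stayed between 3.17 and 23.0 at every count. *Penk* was detected in 2.00% to 11.3% of the Sorcs3-high nuclei of WT mice and in 9.68% to 34.0% of those of V321L mice, and in at most 1.54% and 7.10% of the matched nuclei. As a background, *Penk* UMIs were seen in 0 of the 40 microglia of WT and 0 of the 191 of V321L mice, which allows shares of up to 7.5% and 1.57%, and in 1 of 192 WT (0.521%) and 3 of 609 V321L oligodendrocytes (0.493%), at the lower depths given above. Free RNA held *Penk* at 11.4 to 22.9 CPM in WT and at 21.6 to 49.3 in V321L libraries. The mean levels in WT GCs, at most 23.0 CPM, were about those of free RNA and are not read as expression, and since free RNA and depth both differed between the libraries of the genotypes, no order of the genotypes is read from *Penk*. Summed over all mice, the *Penk* UMIs of the Sorcs3-high nuclei came mostly from V321L mice. In that sum *Penk* lay at 92.3 CPM in the cluster led by it and at 87.0 in that highest in immediate early genes. It lay at 23.9 in the low-*Prox1* clusters and at 7.28 in the others.

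Which other RNAs differed was tested on UMIs summed per mouse with edgeR's quasi-likelihood test, mouse as a block and Benjamini-Hochberg adjustment, with a gene called at an adjusted p of at most 0.05 and a change of at least 1 on the log2 scale. Of 5518 genes tested, 96 were higher in Sorcs3-high nuclei (1.74%) and 37 lower (0.671%). A gene was tested where at least 8 of the 16 sums reached 25.4 CPM, which is 10 counts in a library of median size. Of the 96 genes 39 reached it in all 8 matched sums and 3 in none, so that these 3 passed through the Sorcs3-high sums alone. They were *Pcsk1*, *Mir670hg* and *Hs6st2*, the last named after its values were seen, for which differing was a condition of being tested and no p is given. The genes higher by the most were of several kinds. *Pcsk1*, which encodes a convertase that cleaves peptide precursors, lay at 33.8, 32.1, 66.3 and 30.8 normalised CPM in WT F1, F2, M1 and M2 and at 56.0, 34.7, 30.9 and 66.2 in V321L F1, F2, M1 and M2. In matched nuclei it lay between 0.682 and 5.75, with 28 UMIs in all 2410 nuclei, and the difference was 3.75 ± 0.31. *Mir670hg*, the host transcript of a microRNA, ranged from 54.0 to 292 against 5.54 to 25.9 (3.56 ± 0.23). *Elmo1*, which activates Rac together with Dock proteins, ranged from 79.4 to 305 against 7.75 to 66.2 (2.74 ± 0.17). *Mapk4*, an atypical MAP kinase, ranged from 294 to 577 against 62.7 to 129 (2.29 ± 0.10, edgeR adjusted p = 5.88e-21), and reached the filter in all 16 sums. In *Elmo1* and *Mapk4* the groups did not overlap. *Lhfpl3*, a membrane protein, was higher by 2.27 ± 0.18 and *Nell1*, a secreted protein, by 3.07 ± 0.17. *Elmo1*, *Lhfpl3* and *Nell1* reached the filter in all 8 Sorcs3-high sums but in 3, 4 and 4 matched sums, so that their passing rested on the Sorcs3-high sums.

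*Bdnf*, *Homer1* and some genes of the secretory granule were higher. Of 14 immediate early genes only *Bdnf*, *Homer1* and *Nr4a3* passed the filter on low counts. *Bdnf* and *Homer1* reached it in all 16 sums and were called higher, whereas *Nr4a3*, also called, reached it in 7 Sorcs3-high sums and 1 matched sum and had to be high in Sorcs3-high nuclei to be tested. *Bdnf* lay at 335, 257, 278 and 247 in WT F1, F2, M1 and M2 and at 341, 312, 313 and 291 in V321L F1, F2, M1 and M2, and between 51.2 and 115 in matched nuclei. The groups were well apart, and the difference was 1.89 ± 0.11 (edgeR adjusted p = 5.60e-17). *Nr4a3*, a nuclear receptor that needs no ligand, ranged from 10.1 to 133 against 3.83 to 28.8, which overlapped, and WT F1 was hardly higher than its matches (10.1 against 9.06). *Homer1*, a scaffold of the postsynaptic density, was higher by 1.07 ± 0.13. Of all genes tested, 1.74% were called higher and 0.671% lower. Among the 11 tested of 17 genes for peptides, granins and their enzymes, 5 were called higher and 0 lower, with a median of 0.70 against -0.03 for all genes tested. They were *Bdnf*, *Pcsk1*, which passed as said above, the granins *Scg2* (1.23 ± 0.11) and *Chgb* (1.06 ± 0.11), which help to form dense-core granules, and *Pam* (1.13 ± 0.09), which amidates peptides. Of the 13 genes that the study links to semilunar granule cells, a list chosen on these samples and not independent evidence, 6 were tested. Against the 1.74% of all genes tested, 4 of these 6 were called higher, with a median of 1.12. These were *Scg2*, *Chgb*, the protocadherin gene *Pcdh8* (1.26 ± 0.16) and *Itgav* (1.19 ± 0.15), an integrin subunit. *Pcdh8* reached the filter in 8 Sorcs3-high and 5 matched sums, and the others in all 16 sums.

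Promoters of the peptide genes *Scg2* and *Pcsk1* are shown as 2 of the 7 promoters of genes with higher RNA that hold the full cAMP response element TGACGTCA, in capitals, and that of *Sorcs3* because its locus was more accessible in the ATAC counts. They are given 5′ to 3′ on the strand of the gene, from 250 bases before to 50 after the start, as RefSeq gives them on GRCm38.p6, at chr1:79439977-79440276 (minus strand), chr13:75089607-75089906 (plus strand) and chr19:48205775-48206074 (plus strand).
Scg2: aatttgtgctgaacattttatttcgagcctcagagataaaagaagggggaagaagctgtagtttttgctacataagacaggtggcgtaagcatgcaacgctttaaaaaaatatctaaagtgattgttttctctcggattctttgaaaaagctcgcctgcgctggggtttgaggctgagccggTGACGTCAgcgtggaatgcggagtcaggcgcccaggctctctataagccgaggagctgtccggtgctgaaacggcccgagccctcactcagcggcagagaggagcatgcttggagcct
Pcsk1: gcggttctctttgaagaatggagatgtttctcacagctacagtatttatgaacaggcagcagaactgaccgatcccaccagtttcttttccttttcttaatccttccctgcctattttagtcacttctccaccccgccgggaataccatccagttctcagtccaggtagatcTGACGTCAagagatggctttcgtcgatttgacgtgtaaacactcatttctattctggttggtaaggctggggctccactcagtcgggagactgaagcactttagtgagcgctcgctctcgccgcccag
Sorcs3: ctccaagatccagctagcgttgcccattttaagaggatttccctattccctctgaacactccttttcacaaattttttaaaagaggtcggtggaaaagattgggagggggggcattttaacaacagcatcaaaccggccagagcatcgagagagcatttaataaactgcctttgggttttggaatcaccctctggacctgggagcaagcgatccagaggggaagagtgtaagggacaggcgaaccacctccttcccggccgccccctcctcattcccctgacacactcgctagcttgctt
Of 132 promoters of the 80 called higher genes found in RefSeq, 7 held TGACGTCA on either strand (5.30%; *Btg2*, *Chgb*, *Kif17*, *Pcsk1*, *Plk2*, *Scg2* and *Tenm3*), against 3.36% of the promoters of all genes tested and 1.79% of all 32851 promoters. The AP-1 motif TGANTCA was held by 10 of the 132 (7.58%), by 4.49% of the promoters of genes tested and by 7.81% of all. No promoter printed here held TGANTCA, and of 33 promoters of lower genes 0 held TGACGTCA and 2 (6.06%) held TGANTCA. A match describes letters only.

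Adhesion genes were higher in part. Of 31 axon guidance and adhesion genes tested, 4 were called higher (*Tenm3*, *Efna5*, *Sema3e* and *Tenm4*) and 0 lower, of 16 cadherins and protocadherins 5 (*Pcdh7*, *Pcdh8*, *Cdh10*, *Pcdh11x* and *Pcdh15*), and of 15 synaptic organizers 2, where 1.74% of all genes tested were called higher and 0.671% lower. The latter were *Nrxn3*, a presynaptic neurexin, with 3470 to 8792 normalised CPM against 974 to 3660, and *Adgrl3*, the adhesion receptor latrophilin 3, with 1382 to 5071 against 529 to 1346. *Sema3e* reached the filter in 7 Sorcs3-high and 4 matched sums, *Pcdh8* in 8 and 5, *Tenm4* in 8 and 6, and *Efna5* and *Pcdh11x* in 8 and 7 each. Their passing rested in part on the Sorcs3-high sums, so these counts are not an unbiased tally. The other genes called in these lists reached it in all 16 sums. Part of these calls depended on the low-*Prox1* clusters, in which Sorcs3-high nuclei held *Tenm3* at 1253 CPM, *Cdh10* at 561 and *Tenm4* at 553, against at most 109 in any other part of the Sorcs3-high nuclei. Without these clusters *Tenm3* differed by 0.11 (edgeR adjusted p = 0.767), and *Tenm4* (0.81), *Cdh10* (0.68), *Pcdh11x* (0.96) and *Pcdh15* (0.60) missed the fold required. The voltage-gated potassium channel genes *Kcnq5* and *Kcnc2* were called higher as well, but not without the low-*Prox1* clusters (edgeR adjusted p = 0.996 and 0.966). *Kcnc2* reached the filter in 8 Sorcs3-high and 5 matched sums. Of 13 ionotropic glutamate receptor genes 1 was called lower (*Grik3*). It reached the filter in 2 Sorcs3-high sums and all 8 matched sums, so that its passing rested on the matched nuclei. None was called of the 10 GABA-A receptor subunits, 16 sodium and calcium channels, 8 inward rectifier and tandem-pore potassium channels, 5 metabotropic glutamate receptors, 3 sortilin family receptors, 2 neuregulins or ErbB receptors, 11 genes of the dystrophin complex and 23 transcription factors tested, and at the low share called among all genes nothing is read from these zeros. Of 3 genes that mark the dorsal DG 1, *Gsg1l*, was called higher, and it reached the filter in 8 Sorcs3-high and 5 matched sums.

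The genes that were lower included a gene of the GC list and a marker pair of another set of GCs. *Dsp*, which encodes the junction protein desmoplakin, lay at 30.4, 12.9, 13.3 and 15.4 in WT F1, F2, M1 and M2 and at 28.0, 21.7, 37.8 and 46.3 in V321L F1, F2, M1 and M2, against 44.3 to 87.3 in matched nuclei. Every mouse was lower, with a difference of -1.55 ± 0.19 (edgeR adjusted p = 2.09e-08), although the highest Sorcs3-high value was above the lowest matched value. Of all genes tested 0.671% were called lower, and *Dsp* was the only gene called of the 11 tested of the GC list, whose median was -0.34. *Calb1*, a calcium-binding protein of that list, lay between 57.8 and 113 against 132 and 234 and just missed the fold required (-0.95 ± 0.12). *Npnt*, a protein of the extracellular matrix, was lower by 1.44 ± 0.20 and *Ror1*, a receptor of Wnt5a, by 1.36 ± 0.15. Nuclei with 2 or more UMIs over *Ror1*, *Npnt* and *Il1rapl2*, which mark another set of GCs, made up 9.30% to 21.0% of the Sorcs3-high nuclei and 15.3% to 35.1% of the matched nuclei of a mouse. *Gfra2*, a receptor subunit for neurturin, ranged from 6.62 to 30.9 against 39.9 to 67.6, and *Trabd2b*, an inhibitor of Wnt signaling, from 4.67 to 26.5 against 30.7 to 63.3, and they reached the filter in 2 and 1 Sorcs3-high sums and in all 8 matched sums, so that their passing rested on the group where they were higher. Of the 37 lower genes 11 reached the filter in all 8 Sorcs3-high sums and 26 in fewer, among them *Dsp* and *Npnt* in 4 each. *Grb14* was lower by 1.29 ± 0.13 and reached the filter in all 16 sums. *Eya1* and the potassium channel gene *Kcnn3*, with differences of -1.35 ± 0.25 and -1.22 ± 0.25, reached it in 1 Sorcs3-high sum and 7 matched sums each and had to be high in matched nuclei to be tested. *Npnt* missed the fold in WT mice alone (-0.98). *Kcnn3* was not called in WT mice alone (-0.996, edgeR adjusted p = 0.0725), nor without mouse as a block (-1.20, 0.0704).

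Several of the largest differences were lost without the low-*Prox1* clusters. Among Sorcs3-high nuclei *Galntl6*, a putative glycosyltransferase gene, lay at 2348 CPM in these clusters, at 43.5 in the cluster led by *Penk* and at 43.7 in the 8 other clusters, against 65.6 in all matched nuclei. *Etl4*, *Runx1t1*, *Man1a* and *Pid1* lay at 915, 362, 342 and 229 in the low-*Prox1* clusters and at most at 14.6 in any other part of the Sorcs3-high nuclei. In the whole comparison they were called higher, *Galntl6* by 3.24 ± 0.22, *Man1a* by 2.87 ± 0.27, *Etl4* by 2.19 ± 0.14, *Pid1* by 2.19 ± 0.27 and *Runx1t1* by 2.15 ± 0.23. *Man1a*, *Pid1* and *Runx1t1* reached the filter in all 8 Sorcs3-high sums but in 1, 2 and 3 matched sums, so that their passing rested on the group where they were higher. *Runx1t1* was not called without mouse as a block (1.99, edgeR adjusted p = 0.0704). Without the low-*Prox1* clusters none of the 5 was called, and *Runx1t1* fell to -0.12 (edgeR adjusted p = 0.976). In that comparison 93 genes were called higher, 67 of them among the 96, and 61 lower, 29 of them among the 37. *Nell1* (4.01), *Elmo1* (3.16) and *Lhfpl3* (2.71) were still called higher, although their passing the filter rested on the Sorcs3-high sums, as said above. *Mapk4* (2.55) and *Bdnf* (2.16), which reached the filter in all 16 sums of the whole comparison, were still called higher too, and *Homer1* missed the fold by little (0.97). Leaving out the cluster highest in immediate early genes as well left *Bdnf* at 1.94 and *Mapk4* at 2.20, both still called. For *Pcsk1*, *Mir670hg* and *Nr4a3*, which the filter also passed for their high level, the differences without the low-*Prox1* clusters were 4.85, 3.88 and 2.52.

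**Figure D3:**
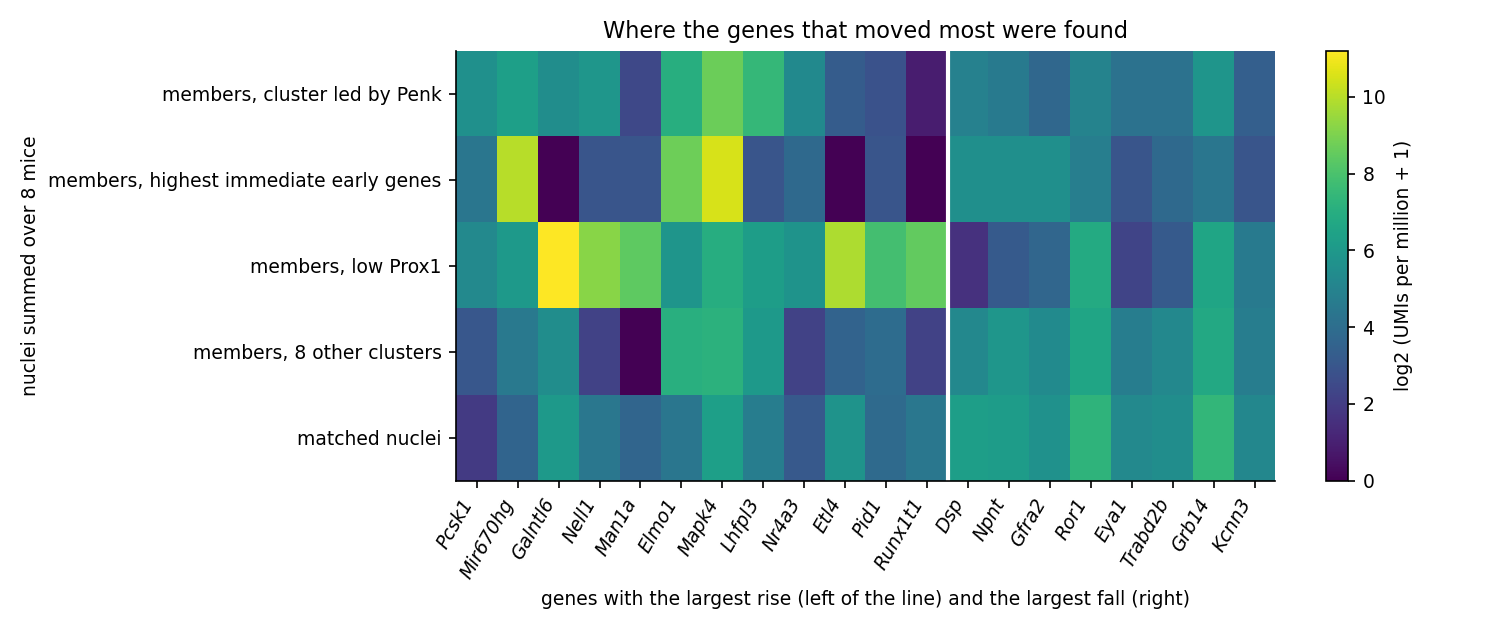
CPM, as log2 (value + 1), of the 12 called genes that rose most and the 8 that fell most, in the Sorcs3-high nuclei of 4 kinds of cluster and in the matched nuclei, each summed over 8 mice. *Galntl6*, *Man1a*, *Etl4*, *Pid1* and *Runx1t1* stand out in the low-*Prox1* clusters, *Mir670hg* and *Mapk4* in the cluster highest in immediate early genes.

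That cluster stood apart within the Sorcs3-high nuclei. Its 44 Sorcs3-high nuclei held *Adgrl3* at 15732 CPM, against 2092 in the cluster led by *Penk*, *Mapk4* at 1486 against 413, *Mir670hg* at 1010 against 78.4, *Chgb* at 1024 against 401, *Bdnf* at 857 against 366, and *Inhba*, a subunit of activin, at 616 against 78.4. *Prox1* lay at 335 against 176. *Sgcz* and *Lhfpl3* went the other way, at 40.2 against 443 and at 6.69 against 173. Immediate early genes went both ways, with *Arc* at 93.7 against 20.9 and *Homer1* at 328 against 283. *Egr1* lay at 0 against 20.9 and *Nr4a3* at 13.4 against 39.2, with 0 and 2 UMIs in this cluster. These are genes of the nuclei that were clustered and are given without a test. The median *Sorcs3* count was 5 UMIs per nucleus in this cluster, 3 in the cluster led by *Penk*, 4 in the low-*Prox1* clusters and 2 in the others, and 18 of the 38 nuclei with 10 or more *Sorcs3* UMIs belonged to it.

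Whether the chromatin differed too was tested on ATAC counts within 50 kb of each gene's start with the same model. Of 23711 windows 124 were more accessible in Sorcs3-high nuclei (0.523%), at 80 separate loci, and 25 less accessible (0.105%), at 23 loci. The strongest was that of *Nptx2*, which encodes a secreted pentraxin that clusters AMPA receptors. It held 86.5, 146, 77.8 and 96.6 normalised CPM in WT F1, F2, M1 and M2 and 125, 120, 121 and 79.3 in V321L F1, F2, M1 and M2, against 27.2 to 66.1 in matched nuclei. The groups did not overlap, and the difference was 1.39 ± 0.18 (edgeR adjusted p = 2.70e-07). The window of *Arc* was higher by 0.56 ± 0.09 in 8 of 8 mice (edgeR adjusted p = 1.84e-04), from 236 to 403 against 168 to 218, and that of its neighbour *Mroh4* by 0.75 ± 0.11. *Gm50430*, which lies before *Sorcs3* on chromosome 19, and *Gm32914* were the other 2 of the 5 with the smallest p. *Arc* and *Gm32914* were not called in windows of 5 kb.

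The *Sorcs3* locus itself was more accessible. Its window held 28.2, 65.1, 21.8 and 25.8 normalised CPM in WT F1, F2, M1 and M2 and 90.4, 43.3, 36.4 and 89.3 in V321L F1, F2, M1 and M2, against 18.6, 24.3, 12.6, 3.78, 48.2, 18.1, 15.6 and 8.11 in the matched nuclei in the same order. The 8 mice all had more in Sorcs3-high nuclei, the groups overlapped, and the difference was 1.36 ± 0.30 (edgeR adjusted p = 0.0105). The call was lost without V321L F2 (adjusted p = 0.0593) and without V321L M1 (0.0636), at differences of 1.38 and 1.39. It was also lost without the low-*Prox1* clusters and the cluster highest in immediate early genes (1.35, edgeR adjusted p = 0.127), without mouse as a block (1.30, 0.297) and in windows of 5 kb (1.22, 0.136). The windows of *Nrg1*, *Grm8* and *Penk* were not called. That of *Nrg1* differed by 0.28 ± 0.12 (edgeR adjusted p = 0.323) and that of *Grm8* by 0.10 ± 0.25 (0.932). That of *Penk* differed by 0.84 ± 0.31 and was higher in 7 of 8 mice (0.224).

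RNA and accessibility mostly pointed the same way. Of the 83 genes with higher RNA that also had a tested window, 67 (80.7%) had a window difference above 0, with a median of 0.27, against 46.3% of all 5438 genes with both readouts. Of 36 genes with lower RNA 4 (11.1%) did. These shares are from all 482 nuclei and were not computed without the low-*Prox1* clusters. Those clusters held 18.9% of the Sorcs3-high and 6.43% of the matched nuclei, and their part in the shares was not tested. Called in both readouts were *Elmo1*, *Lingo1*, *Npas2*, *Nrxn3*, *Rasgrp1*, *Samd4* and *Synpo* as higher, and *Matn2* and *Tgfbr1* as lower, and no gene was called in opposite directions. The window of *Mir670hg* was called higher too, while its RNA, and in part that of *Elmo1* (3 of 8 matched sums), passed the filter through the Sorcs3-high sums. The windows of *Nrxn3* (0.43 ± 0.08), *Lingo1* (0.47 ± 0.09) and *Rasgrp1* (0.76 ± 0.14) were each higher in at least 7 of 8 mice, and these 3 were also called without the low-*Prox1* clusters and the cluster highest in immediate early genes. The window of *Mir670hg* (0.45) was not called without the low-*Prox1* clusters (0.50, edgeR adjusted p = 0.0823), nor was that of *Elmo1* (1.08) without both kinds of cluster (1.04, 0.213). By contrast, the windows of *Bdnf* (0.06 ± 0.12) and *Nr4a3* (0.17 ± 0.11) were not called although their RNA was. The less accessible windows with the smallest p were those of *Gm42439*, *Gm33981*, *Gm17333*, *Gm44778* and *Filip1*, and that of *Gm17333* (-1.68 ± 0.37) did not overlap between the groups. The calls of *Gm17333* and *Gm44778* were lost without WT F1 (edgeR adjusted p = 0.0622 and 0.140), without V321L F2 (0.119 and 0.121), without V321L M1 (0.0857 and 0.0636) and without mouse as a block (0.119 and 0.185), and that of *Gm44778* also with predicted doublets removed (0.0727). That of *Filip1* was lost without any 1 of WT F1, WT F2, V321L F2 and V321L M1 (0.0814 to 0.258), in DESeq2 (0.0948) and without the block (0.307), that of *Gm33981* without WT F1, WT F2 or V321L F2 (0.0518 to 0.0922) and without the block (0.0770), and that of *Gm42439* without the block (0.0924). Without the low-*Prox1* clusters the windows of *Gm42439* (-1.13 against -1.24 with them), *Gm33981* (-0.998 against -1.15) and *Filip1* (-0.68 against -0.81) were not called, and that of *Gm42439* was called again when the cluster highest in immediate early genes was left out too (-1.29, edgeR adjusted p = 0.0410).

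At single regions with a peak in all 8 libraries, 64 of 16752 were more accessible (0.382%) and 23 less (0.137%). The strongest lay at chr15:74678692-74679687 (mm10), 6122 bp from the start of *Arc* and inside no gene. It held 61.3, 65.2, 80.1 and 72.1 normalised CPM in WT F1, F2, M1 and M2 and 52.3, 65.5, 38.8 and 38.4 in V321L F1, F2, M1 and M2, against 6.51 to 27.7 in matched nuclei. The groups did not overlap, and the difference was 2.23 ± 0.27 (edgeR adjusted p = 1.09e-06), also called without the low-*Prox1* clusters and the cluster highest in immediate early genes (1.88, adjusted p = 0.00477). A region at chr4:133614083-133615100 within *Zdhhc18* (1.75 ± 0.27), one at chr1:192266662-192267630 within *Kcnh1* (1.57 ± 0.29), one at chr9:66321973-66323279, 27246 bp from the start of *Herc1* (1.49 ± 0.28), and one at chr3:90587488-90588457 over the start of *S100a3* (1.57 ± 0.30) followed, all without overlap. Without the low-*Prox1* clusters and the cluster highest in immediate early genes, those within *Kcnh1* (1.28, edgeR adjusted p = 0.190), near *Herc1* (1.58, 0.0598) and at *S100a3* (1.52, 0.0594) were not called, although all 3 were without the low-*Prox1* clusters alone (0.00521, 0.00652 and 0.00167). The first was also lost without V321L M1 and the last without WT F1. Of the 2 tested regions within *Sorcs3* (chr19:48206025-48805505) that at chr19:48584692-48585669 was called (2.03 ± 0.42, edgeR adjusted p = 0.0135), in 7 of 8 mice. The strongest of the less accessible regions was at chr6:86326581-86327598, 38047 bp from the start of *Fam136a* (-2.35 ± 0.42), and it was not called without V321L M1 (edgeR adjusted p = 0.0676). Of the 64 regions 12 lay over the start site of a gene of any kind, and 28 lay beyond 50 kb of any protein-coding start.

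**Figure D4:**
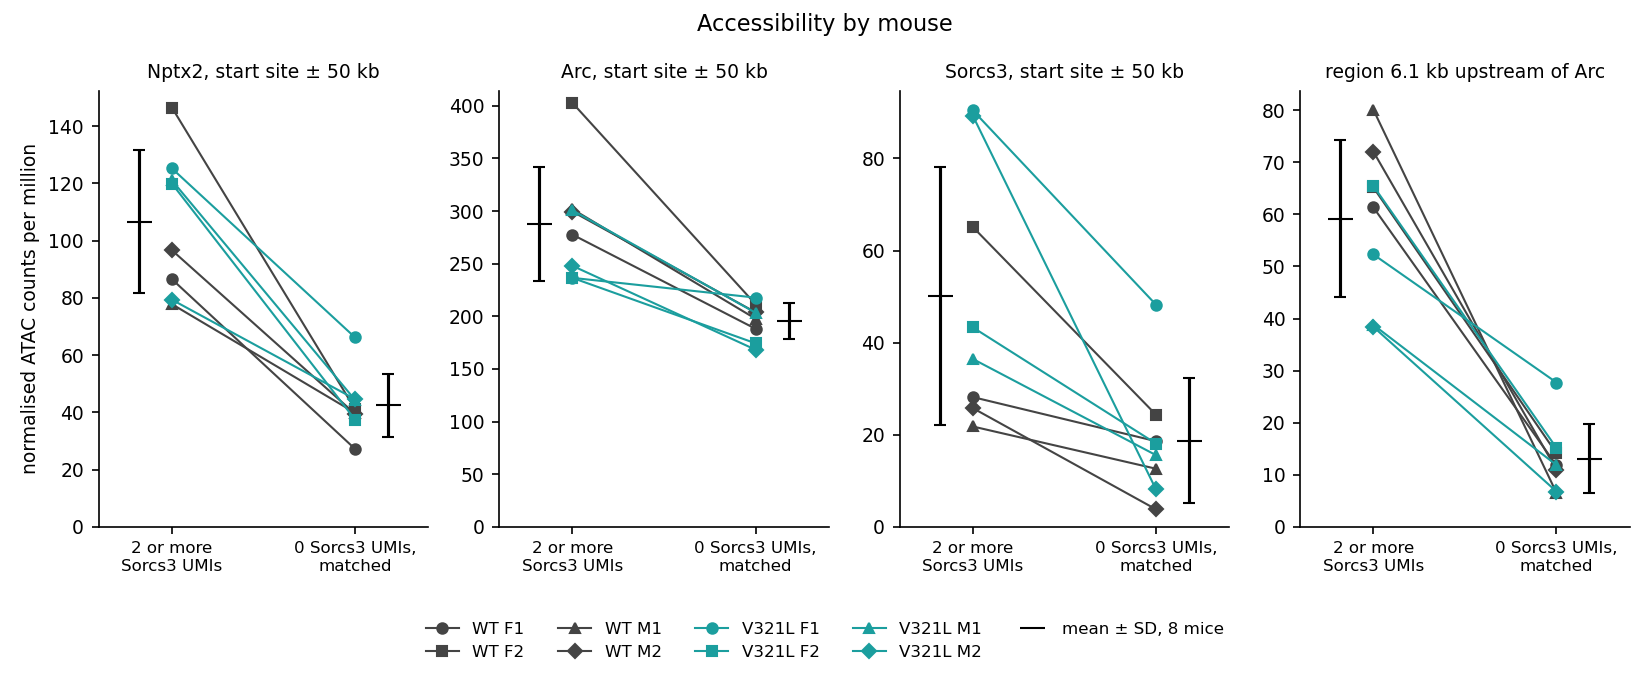
Normalised ATAC CPM within 50 kb of the starts of *Nptx2*, *Arc* and *Sorcs3* and in the region near *Arc*, in Sorcs3-high and matched nuclei, with a line per mouse and the mean ± SD over 8 mice. All lines fall from left to right, and the groups overlap only for *Sorcs3*.

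The counts of called windows and regions depended on single libraries. Leaving out WT F1, V321L F2 or V321L M1 left 38, 38 and 33 more accessible windows of 124 and 3, 3 and 5 less accessible windows of 25. The same 3 steps left 8, 17 and 7 more accessible regions of 64 and 1, 2 and 0 less accessible regions of 23, where the fit without V321L M1 that gave 0 had 1084 regions at an unadjusted p under 0.05 in edgeR. Leaving out WT F2, WT M1 or WT M2 left 76, 88 and 91 more accessible windows, 9, 23 and 18 less accessible windows, 40, 48 and 43 more accessible regions, and 9, 16 and 9 less accessible regions. *Nptx2*, *Arc* and the region near *Arc* were called without any 1 mouse.

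The share of GCs that were Sorcs3-high overlapped between the genotypes. It was 6.26%, 4.19%, 2.24% and 4.80% in WT F1, F2, M1 and M2 and 3.88%, 6.33%, 5.96% and 3.64% in V321L F1, F2, M1 and M2. The difference was smaller than the spread between mice, with 4.37 ± 1.67% against 4.95 ± 1.39% (SD, n = 4 each; exact permutation p = 0.629, where 0.0286 is the smallest possible). V321L nuclei were deeper, however, and a limit on UMIs passes more deep nuclei. When each nucleus was thinned to 2000 UMIs, which left out 3662 WT and 290 V321L nuclei, with the GC rule applied again, the shares were 4.12 ± 0.894% and 1.64 ± 0.285%, with WT mice at 3.10 to 5.18% and V321L mice at 1.36 to 2.02% and no overlap (exact permutation p = 0.0286). Thinned to 1000 UMIs they were 1.38 ± 0.534% and 0.426 ± 0.223% and overlapped (exact p = 0.0571), with 66 and 10 Sorcs3-high nuclei. Over all GCs *Sorcs3* lay at 112 ± 24.6 CPM in WT and 67.0 ± 5.04 in V321L mice, again without overlap (exact p = 0.0286). The unthinned share thus went against the level, and no order was read from it. In the same libraries free RNA held less *Sorcs3* in V321L mice, as given above, and the depth of the libraries and the genotype cannot be told apart.

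**Figure D5:**
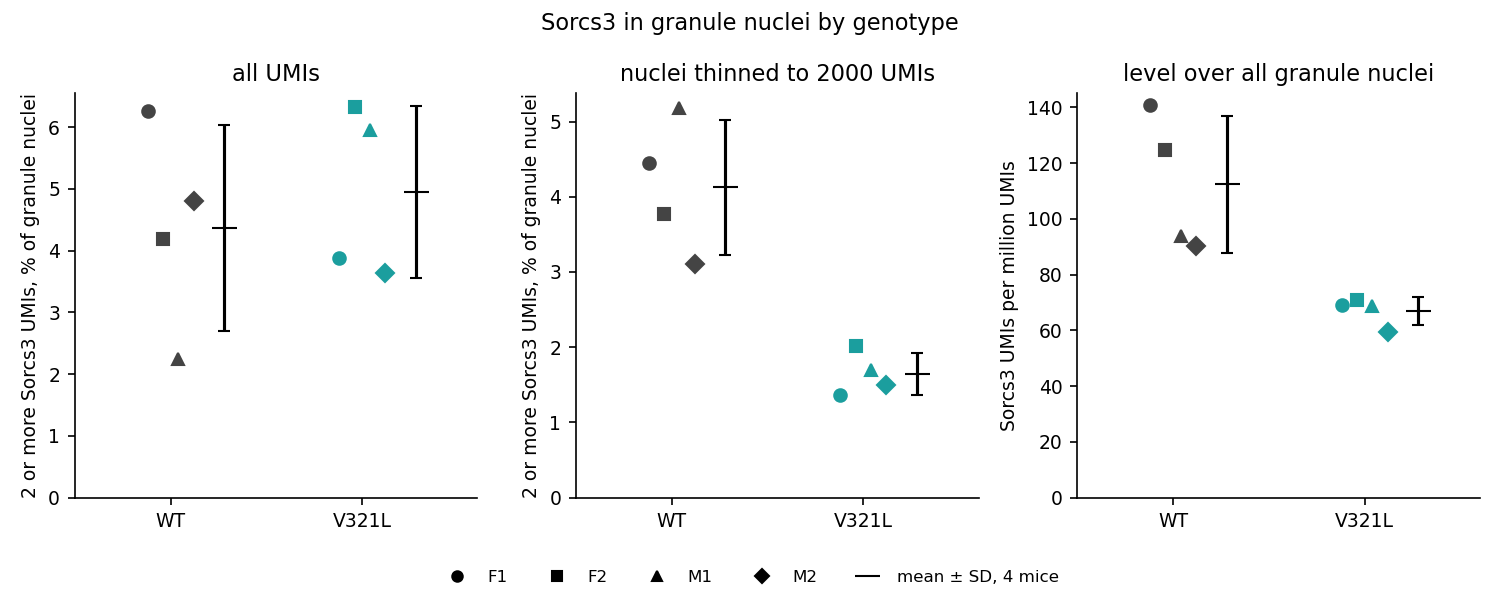
Share of GCs with 2 or more *Sorcs3* UMIs with all UMIs (left) and with each nucleus thinned to 2000 UMIs (middle), and *Sorcs3* CPM over all GCs (right), by mouse with the mean ± SD over 4 mice. The genotypes overlap on the left and are apart in the other panels, with WT mice above V321L mice.

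Genes of the Sorcs3-high nuclei differed between the genotypes widely, as did those of matched GCs. Of 4465 genes tested in Sorcs3-high nuclei 1979 (44.3%) were called between V321L and WT mice by edgeR, and in matched nuclei 6302 of 9822 (64.2%). The genes with the smallest p were higher in V321L for *Malat1* (a mean of 49806 normalised CPM in V321L against 12064 in WT Sorcs3-high nuclei), *Pcsk1n*, *Atp6v0b*, *Ppp1r1a* and *Rnasek*, and lower for *Gm42418* (270 in V321L against 5685 in WT), *AY036118*, *Gm26917*, *Xkr4* and *Trps1*, and all 10 moved the same way in matched nuclei. Differences of this breadth went with the libraries, so that a genotype effect within Sorcs3-high nuclei cannot be told apart from them. *Nrg1* was lower in V321L mice by 0.63 ± 0.19 among Sorcs3-high nuclei (edgeR adjusted p = 0.0106) and by 0.85 ± 0.18 among matched nuclei, and *Grm8* by 1.29 ± 0.19 and 0.65 ± 0.24.

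Differences between Sorcs3-high and matched nuclei that depended on the genotype were few. The interaction of genotype and *Sorcs3* class was called for 14 of 6849 genes (0.204%), above 0 (a higher ratio of Sorcs3-high to matched nuclei in V321L mice) for 13 of them. *Chrm3*, the muscarinic M3 receptor gene, ranged from 225 to 513 in WT and from 233 to 621 in V321L Sorcs3-high nuclei, and from 112 to 357 and from 21.9 to 74.9 in matched nuclei. The Sorcs3-high values of the genotypes overlapped, whereas the matched values of V321L mice lay below those of WT mice. Its interaction was 2.26 ± 0.22 (edgeR adjusted p = 8.33e-10). *Cdh10* (1.72 ± 0.23), *Cntnap2* (1.09 ± 0.15), *Ntm* (1.80 ± 0.24) and *Kcnh7* (1.18 ± 0.18) had the next smallest p, and *Hs3st4* (-1.10 ± 0.26) was the gene with an interaction below 0. It was lower in the Sorcs3-high than in the matched nuclei of all 4 V321L mice (97.8, 74.3, 80.7 and 145 against 192, 135, 144 and 184 in F1, F2, M1 and M2) and higher in those of WT F2, M1 and M2, but not of WT F1 (277 against 530). Its call was lost in DESeq2 (adjusted p = 0.804) and without any 1 of WT F2, WT M1, WT M2, V321L F1 and V321L F2 (edgeR adjusted p of 0.0851 to 0.364). Without the low-*Prox1* clusters none of these 6 was called, and 2 genes were, which were named after their values were seen. They were *Inhba* (1.63, edgeR adjusted p = 0.00209) and *Cntnap5a* (-0.70, 0.00317). *Inhba* was also among the 14 of the whole comparison (1.73 ± 0.31), with 69.2, 113, 183 and 63.7 normalised CPM in the Sorcs3-high nuclei of WT F1, F2, M1 and M2 against 73.6, 61.7, 40.7 and 66.8 in their matches, and with 97.8, 102, 131 and 92.6 against 16.7, 26.4, 23.5 and 19.5 in V321L F1, F2, M1 and M2. The 2 groups overlapped in WT and were apart in V321L mice. Of *Nrg1*, *Sorcs1*, *Grm8* and *Sgcz*, whose interactions lay between -0.82 and 0.29, none was called, and *Grm8* had the smallest adjusted p (0.158 in edgeR).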

How the data were processed

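Nuclei were isolated from frozen microdissected DG tissue without a sort and profiled for RNA and ATAC together. The authors deposited 1 table of counts per mouse, RNA UMIs per gene and ATAC counts per peak, made with cellranger-arc 2.0.2 on mm10, with peaks called in each library. The submitters' processing notes also name Seurat and Signac. Nuclei had 501 to 8916 UMIs, 251 to 3307 genes, under 2.787% mitochondrial UMIs and at least 500 ATAC counts. Library totals were 4326426 to 23582057 RNA UMIs and 6580616 to 25552769 ATAC counts.

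The members and gene lists were chosen with earlier results of these data known. Counts were summed per mouse over members and over matched nuclei and tested with edgeR 4.0.16 (TMM, low-count filter, quasi-likelihood, mouse as a block). RNA was called at an adjusted p of 0.05 and a log2 change of 1, the other fits at an adjusted p of 0.05. Genes required by the rule and its 5 markers were left out of the RNA calls of members against matched nuclei. The p-values measure the spread between mice, and nothing ties the mice of the genotypes to each other. Tests were checked on simulated data. Clusters came from scanpy 1.11.5 (2000 variable genes, 30 components, 20 neighbours, resolution 1). Doublets were nuclei with a Scrublet score over the library mean plus 2 SD and were kept. Named were the 12 largest rises and 8 largest falls that averaged 20 CPM or more and moved alike in all mice, 5 windows or regions per direction by p, up to 5 genes per direction in the genotype fits, and examples from 32 lists with 347 genes. Alternatives were other normalisation, filters, windows, matching, limits and tools (DESeq2 1.42.0), single mice left out, and clusters left out, which was chosen after seeing the data. Results for some genes are not reported here.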

Additional observations from a re-analysis of the deposited data

Results flagged for a closer look

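Among 58 groups of 4 mice examined for a mouse far from the other 3, 7 had one, and chance flags about 1 in 20 groups. In Sorcs3-high nuclei, in normalised CPM, *Pcsk1* lay at 66.3 in WT M1 (30.8 to 33.8 in the other WT mice) and *Dsp* at 30.4 in WT F1 (12.9 to 15.4). In WT F2 *Ror1* lay at 129 (46.3 to 53.0), *Grb14* at 138 (79.5 to 84.8) and *Kcnn3* at 35.3 (11.6 to 13.5). In V321L mice *Grm8* lay at 234 in M1 (146 to 160) and *Man1a* at 205 in M2 (44.6 to 71.5).

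The difference between Sorcs3-high and matched nuclei itself differed between the genotypes, by the interaction term in edgeR, for *Chrm3* (2.26), *Cdh10* (1.72), *Cntnap2* (1.09), *Ntm* (1.80), *Kcnh7* (1.18) and *Hs3st4* (-1.10). None of the 6 was called without the low-*Prox1* clusters.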

How the results depend on the processing

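Counts are given as higher and lower. With no filter on low counts RNA calls were 239 and 172, less accessible windows 55, less accessible regions 72, interaction calls 24 and 2, and genotype calls 1831 and 1403. Against unmatched nuclei RNA calls were 162 and 78, lower interaction calls 4, and genes per nucleus were higher by 370. V321L mice alone gave 178 and 89 RNA calls. With no replicate block RNA calls were 56 and 19, windows 17 and 0 (1906 at an unadjusted p under 0.05 in edgeR), and regions 175 and 75; with the replicate number as a block the genotype share gave p = 0.75 in an exact test whose smallest p is 0.125. Same-numbered mice of the genotypes correlated at 0.0913, 0.0766, 0.0509 and 0.0574, so the numbers share only a name. Windows of 5 kb gave 15 and 2, of 200 kb 308 and 91, and members with 3 or more *Sorcs3* UMIs 40 and 6. With doublets removed less accessible windows were 14, the mitochondrial difference -0.0738 (exact p = 0.0547) and the ATAC difference -97.6. Matching on ATAC counts gave 12 less accessible regions. DESeq2 gave 6 and 0 interaction calls.

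Without the low-*Prox1* clusters lower RNA calls were 61, less accessible regions 14 and higher interaction calls 1, *Runx1t1* was at -0.12 and *Cntnap2* at -0.025. Without the cluster highest in immediate early genes too, lower RNA calls were 61, more accessible windows 61 and regions 15 and 9. The genotype difference in share was -0.95 and -2.48 points thinned to 1000 and 2000 UMIs, and -45.4 as a level. Leaving out single mice gave 90 to 121 and 26 to 49 RNA calls, 33 to 163 and 3 to 33 windows, 7 to 78 and 0 to 25 regions, 11 to 17 and 0 (without WT F2 or WT M2) to 3 interaction calls, 1053 to 1318 and 756 to 1043 genotype calls, and a share difference of -0.13 (without WT M1) to 1.21. Genes per nucleus differed by -64.1 (without WT M1, exact p = 0.0469) to -37.6, the mitochondrial share by -0.0922 to -0.0437, and ATAC counts by -154 (without V321L M1) to 168, with -32.0 without WT M1. The causes were not tested. Leaving out nuclei with any UMI of other neuron markers was not run, since 0 to 7 members per mouse remained. A version that did not count *Adarb2*, *Cpne4* and *Necab1* was added and kept 15 to 72 members per mouse. It gave 83 higher and 47 lower RNA calls. WT M1 had the fewest members (26) and the fewest UMIs in them (77320).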
